A study of Homo sapiens with 6 samples.

Results

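The genes described here are those of the METTL, NSUN, PUS, TRMT and ALKBH families, most of which encode enzymes that modify RNA outside the m6A writer complex. They were chosen by symbol: every gene in the count tables named METTL, NSUN, PUS, TRMT or ALKBH followed by a number, leaving out METTL3, METTL14, METTL16 and ALKBH5. This gave 57 of 19923 protein-coding genes, made up of 22 METTL, 17 TRMT, 7 ALKBH, 6 NSUN and 5 PUS genes. Their RNA was measured by sequencing of poly(A)-selected transcripts in Kelly cells, an established human neuroblastoma line with amplified MYCN and no engineered genotype per the labels. Cells had received either a control siRNA (siControl, 3 libraries) or an siRNA against METTL3 (siMETTL3, 3 libraries), transiently and with a lipid reagent, and were collected after 72 hours. The labels do not say whether the 3 libraries of a group came from separate cultures, so p-values measure the spread between these libraries, which may be technical.

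RNA carries many chemical marks besides m6A, and transfer RNA carries the most. Methyltransferases of the TRMT, NSUN and METTL families add methyl groups from S-adenosylmethionine, pseudouridine synthases (PUS) turn uridine into its isomer, and ALKBH dioxygenases remove alkyl groups from nucleic acids or proteins. These marks hold tRNA in shape, tune decoding and help build cytosolic and mitochondrial ribosomes. METTL3, the enzyme depleted here, writes m6A in mRNA. The family names do not guarantee an RNA substrate: several METTL proteins methylate proteins or small molecules, and ALKBH2 repairs DNA.

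Total counts per library ranged from 15430000 to 21565013, and the 57 genes together took between 0.215% and 0.232% of them. METTL3 had 1154, 1055 and 847 counts in siControl and 679, 692 and 705 in siMETTL3. Relative to library size it fell by 39.0% (log2 fold change -0.71, with a standard error, SE, of 0.070, edgeR FDR 4.68e-06). The METTL3 span overlaps 1 other counted gene, so its count can hold reads of that gene. All 10 neuroblastoma markers that were checked were expressed, but they went both ways: 6 were higher in siMETTL3, such as HAND2 (log2 fold change 0.48) and TH (1.52), and 2 were lower, ISL1 (-1.18) and CHGB (-0.56). Their sum, to which MYCN contributed most, had a level (in CPM, counts scaled to a fixed library total) of 6178 to 6626 CPM in siControl and 8828 to 9394 CPM in siMETTL3. The 10 markers of other cell types summed to 11.8 to 16.2 CPM in siControl and 14.3 to 15.99 CPM in siMETTL3, with between 1 and 4 of them at 0 in a library and KRT5 at 0 in all. Of these, COL1A1 was called higher in siMETTL3, at 2.96 ± 1.27 CPM (SD, n = 3) against 5.26 ± 0.471 CPM (SD, n = 3). COL3A1, another collagen gene, lay the other way without overlap, at 2.52 ± 0.308 and 1.62 ± 0.295 CPM (edgeR FDR 0.0629), as did PECAM1, at 0.825 ± 0.264 and 0.409 ± 0.225 CPM (edgeR FDR 0.143). The part of these markers in the results below was not tested. In bulk samples, fewer cells of a type and less RNA per cell cannot be told apart.

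Most of these genes moved little. Of the 57, 54 had enough counts to be tested, and 16 passed an adjusted p-value (FDR) of 0.05 in edgeR's quasi-likelihood test: 12 were lower and 4 were higher in siMETTL3. That is 29.6% of the tested members, where 37.8% of all 15311 tested genes were called. Among all tested genes 18.6% were called higher and 19.2% lower, and among the members 7.41% and 22.2%. The lower genes were PUS7L, METTL26, NSUN5, METTL9, METTL17, TRMT5, TRMT13, ALKBH7, TRMT11, TRMT2A, TRMT1 and NSUN3. The higher genes were TRMT44, PUS7, ALKBH3 and NSUN2.

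The changes were small. The called members had log2 fold changes between -0.46 (PUS7L) and 0.31 (TRMT44), and 0 of them reached an absolute log2 fold change of 0.5, which 12.7% of all tested genes did while passing the threshold. The median log2 fold change was -0.045 over the members and -0.0021 over all tested genes, and the median absolute value was 0.17 and 0.21. In 26 members (48.1%) the 3 values of a group lay apart from the 3 of the other, close to the 49.9% found over all tested genes. All 16 called members were among these 26. Summed over the 57 genes, the level was 2317, 2316 and 2321 CPM in siControl and 2187, 2133 and 2174 CPM in siMETTL3. Every siMETTL3 library lay below every siControl library in that sum, also when TRMT11, its largest member, was left out (2087 to 2119 CPM against 1971 to 2015 CPM).

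**Figure D1:**
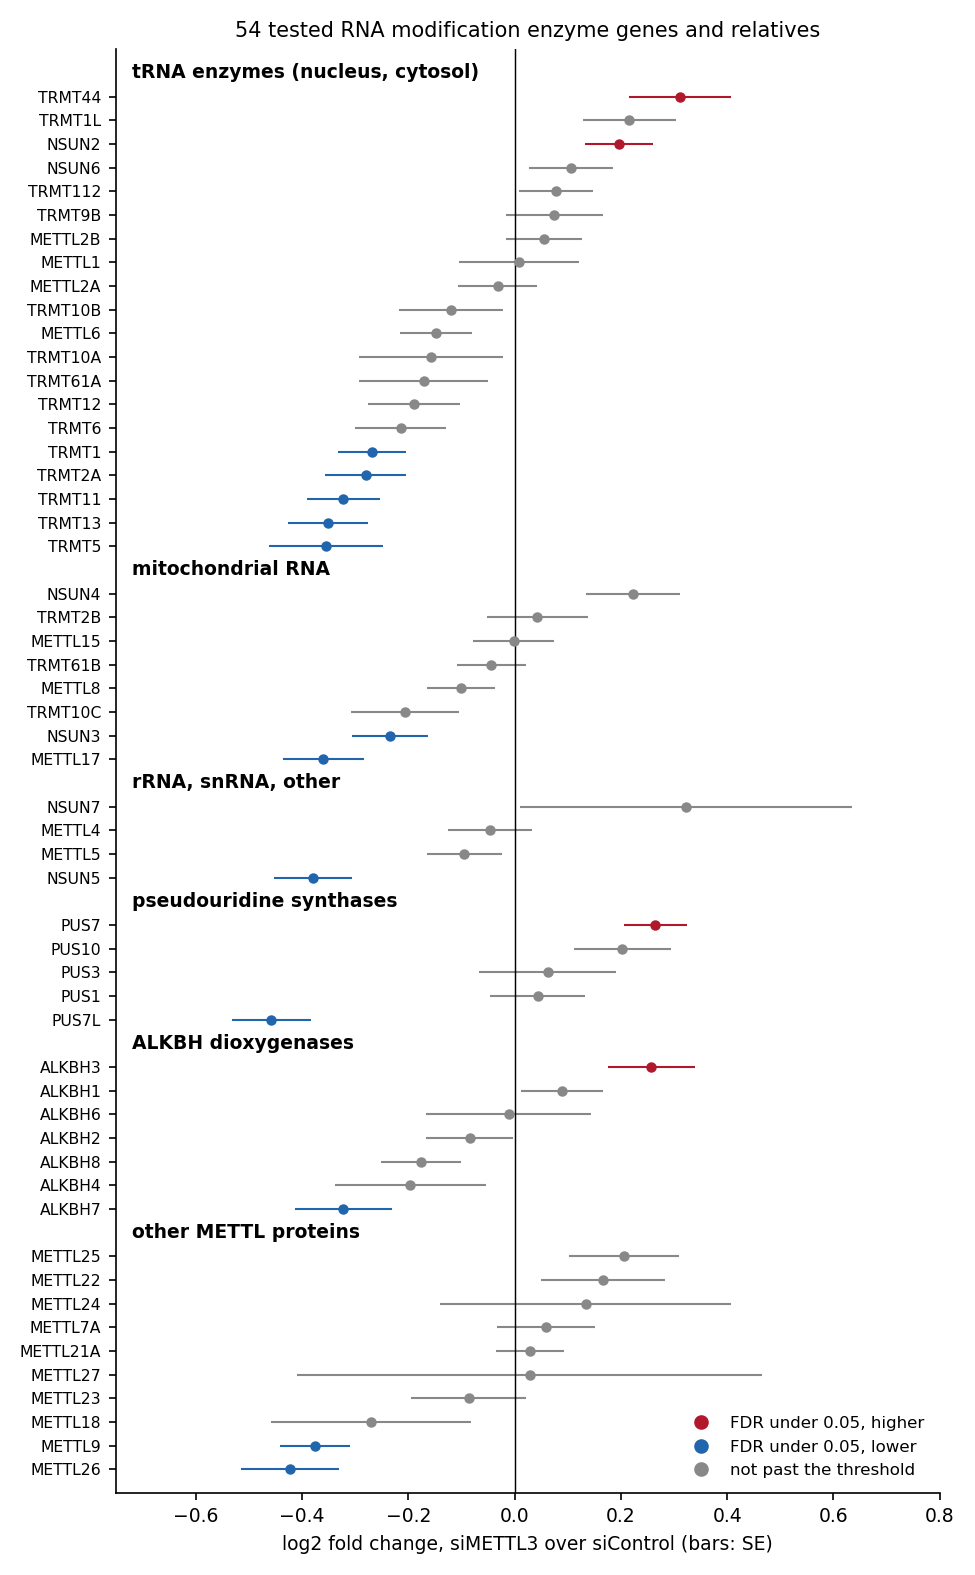
Log2 fold change of siMETTL3 over siControl (x axis, with SE as bars) for the 54 tested genes, grouped by role; red and blue mark an FDR under 0.05. The 12 lower genes are spread over all roles, and the 4 higher ones lie among the tRNA enzymes, pseudouridine synthases and ALKBH genes. Called values lie between -0.46 for PUS7L and 0.31 for TRMT44.

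The tRNA enzymes of the nucleus and cytosol were the largest group, with 20 members, all tested. Of these, 5 fell, 2 rose and 13 were not past the threshold, so that 35.0% were called, near the 37.8% of all tested genes. The shares in the other groups, of 4 to 10 tested genes each, lay between 20.0% and 40.0%. The group's median log2 fold change was -0.13.

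TRMT11 (chromosome 6, 125986479 to 126203817, plus strand), the catalytic subunit that places N2-methylguanosine in tRNA, measured 198, 198 and 233 CPM in siControl and 172, 162 and 168 CPM in siMETTL3. All 3 siMETTL3 values were below all siControl values, and siControl replicate 3 was the highest. The fitted log2 fold change came to -0.32 (SE 0.068, edgeR FDR 0.00219). TRMT13 (chromosome 1, 100133150 to 100150498), a ribose methyltransferase of tRNA, went from 57.0, 57.7 and 58.7 CPM to 42.1, 43.6 and 50.3 CPM (log2 fold change -0.35, SE 0.075, edgeR FDR 0.00232). The siControl values lay close together and siMETTL3 replicate 3 came nearest to them. TRMT13 shares 11.8% of its span with LRRC39, which was at 16.5 ± 1.31 and 13.7 ± 1.55 CPM and was not past the threshold.

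TRMT1 (chromosome 19, 13104902 to 13117567), which makes dimethylguanosine in tRNA, fell from 71.6, 70.0 and 64.6 CPM to 58.8, 56.5 and 56.2 CPM (log2 fold change -0.27, SE 0.064, edgeR FDR 0.00493). It overlaps NACC1 over 5.57% of its span, and NACC1 moved the other way (log2 fold change 0.21, edgeR FDR 0.0247). TRMT2A (chromosome 22, 20111875 to 20117392), which methylates uridine in the T loop, measured 56.9, 55.9 and 49.5 CPM in siControl and 46.5, 46.2 and 41.2 CPM in siMETTL3. The groups did not overlap, and the log2 fold change was -0.28 (SE 0.077, edgeR FDR 0.0108). RANBP1 covers 26.4% of the TRMT2A span and had a log2 fold change of -0.31 (edgeR FDR 0.131), so reads counted for both cannot be told apart. The TRMT2A call was lost without siControl replicate 2 (FDR 0.0567) or siMETTL3 replicate 3 (FDR 0.0656).

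TRMT5 (chromosome 14, 60971441 to 60981170), which methylates the guanosine next to the anticodon, had 23.0, 22.8 and 29.6 CPM in siControl and 19.2, 19.8 and 19.7 CPM in siMETTL3. Its fall (log2 fold change -0.35, SE 0.11, edgeR FDR 0.0185) leaned on siControl replicate 3, without which the log2 fold change was -0.23 (FDR 0.0604). It also missed the threshold without siMETTL3 replicate 1, 2 or 3 (FDR 0.0696, 0.0571 and 0.0569).

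In the other direction, TRMT44 (chromosome 4, 8436140 to 8493531), a putative ribose methyltransferase of tRNA, rose from 29.5, 27.1 and 22.6 CPM to 31.4, 33.8 and 33.6 CPM (log2 fold change 0.31, SE 0.096, edgeR FDR 0.0203). It was not past the threshold without siControl replicate 2 (FDR 0.0544), siMETTL3 replicate 2 (0.0832) or siMETTL3 replicate 3 (0.0735). ACOX3, which shares 7.99% of the TRMT44 span, had a log2 fold change of 0.27 (edgeR FDR 0.0674). NSUN2 (chromosome 5, 6599239 to 6633291), the main m5C methyltransferase of tRNA, rose from 59.7, 63.7 and 64.4 CPM to 75.5, 70.7 and 69.0 CPM. This was the smallest called change (log2 fold change 0.20, SE 0.064, edgeR FDR 0.0259). It was not past the threshold without siControl replicate 1 or 2 (FDR 0.0635 and 0.0639) or without siMETTL3 replicate 1 or 2 (FDR 0.138 and 0.0644).

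The 13 other tRNA genes had log2 fold changes between -0.21 (TRMT6) and 0.22 (TRMT1L). In TRMT6, TRMT12, METTL6 and TRMT1L the groups did not overlap although the test was not passed (edgeR FDR 0.0621, 0.105, 0.104 and 0.0646). TRMT10B lies wholly inside the span of AL138752.2, which held 350 ± 11.5 CPM in siControl and 411 ± 8.29 CPM in siMETTL3. The TRMT10B count of 30.6 ± 4.13 and 28.3 ± 1.19 CPM therefore cannot be given to that gene alone.

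METTL2A and METTL2B, which encode enzymes for m3C in tRNA, are near copies of each other. Their coding sequences in the canonical GENCODE transcripts were both 1134 bases long and 98.7% identical, and the transcripts shared an unbroken run of 331 bases. The first 120 coding bases of each (GRCh38, plus strand, over an exon junction: METTL2A chr17:62423903-62424228, METTL2B chr7:128476766-128477091) show how few bases separate them; capitals mark the 2 that differ.
METTL2A: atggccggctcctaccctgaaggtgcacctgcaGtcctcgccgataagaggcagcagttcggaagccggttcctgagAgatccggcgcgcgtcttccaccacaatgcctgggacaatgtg
METTL2B: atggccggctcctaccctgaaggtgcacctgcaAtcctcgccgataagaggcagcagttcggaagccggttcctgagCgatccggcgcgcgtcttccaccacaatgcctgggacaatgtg

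How reads from such stretches were shared between the copies is not recorded, so both levels are uncertain. METTL2A measured 55.1 ± 4.20 CPM in siControl and 53.9 ± 3.10 CPM in siMETTL3 (SD, n = 3). METTL2B measured 86.7 ± 7.90 and 90.2 ± 4.14 CPM. The ratio of METTL2B to METTL2A was 1.6, 1.55 and 1.57 in siControl and 1.63, 1.67 and 1.72 in siMETTL3. No other pair that was compared came near this likeness: the next, METTL7A and METTL7B, matched at 68.7% of aligned coding bases, and PUS7 and PUS7L at 59.0%.

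Pseudouridine synthases held the largest fall among the members, in PUS7L, and a rise in PUS7. PUS7L (chromosome 12, 43718993 to 43758817, minus strand) fell by 27.2%, from 93.5, 99.8 and 99.8 CPM in siControl to 71.0, 63.8 and 78.6 CPM in siMETTL3. The groups were far apart relative to their spread (log2 fold change -0.46, SE 0.074, edgeR FDR 0.000321). PUS7 (chromosome 7, 105439661 to 105522271, minus strand), which modifies tRNA and mRNA, rose by 20.2%, from 63.1, 60.6 and 62.2 CPM to 75.9, 75.3 and 72.0 CPM (log2 fold change 0.26, SE 0.060, edgeR FDR 0.00325). Neither span overlaps another gene of the tables. PUS7L is the paralog of PUS7. The ratio of PUS7 to PUS7L went from 0.675, 0.607 and 0.623 in siControl to 1.07, 1.18 and 0.916 in siMETTL3. That restates their opposite changes and is no further result.

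The 3 other pseudouridine synthases were not past the threshold. PUS10 was at 17.1 ± 0.318 and 19.7 ± 0.956 CPM, without overlap (edgeR FDR 0.0986). PUS1, which acts on tRNA and mRNA, was at 81.6 ± 11.4 and 84.3 ± 4.69 CPM. PUS3, which acts on the anticodon arm of tRNA, was at 9.51 ± 0.319 and 9.95 ± 1.23 CPM, and 73.6% of its span is shared with HYLS1.

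**Figure D2:**
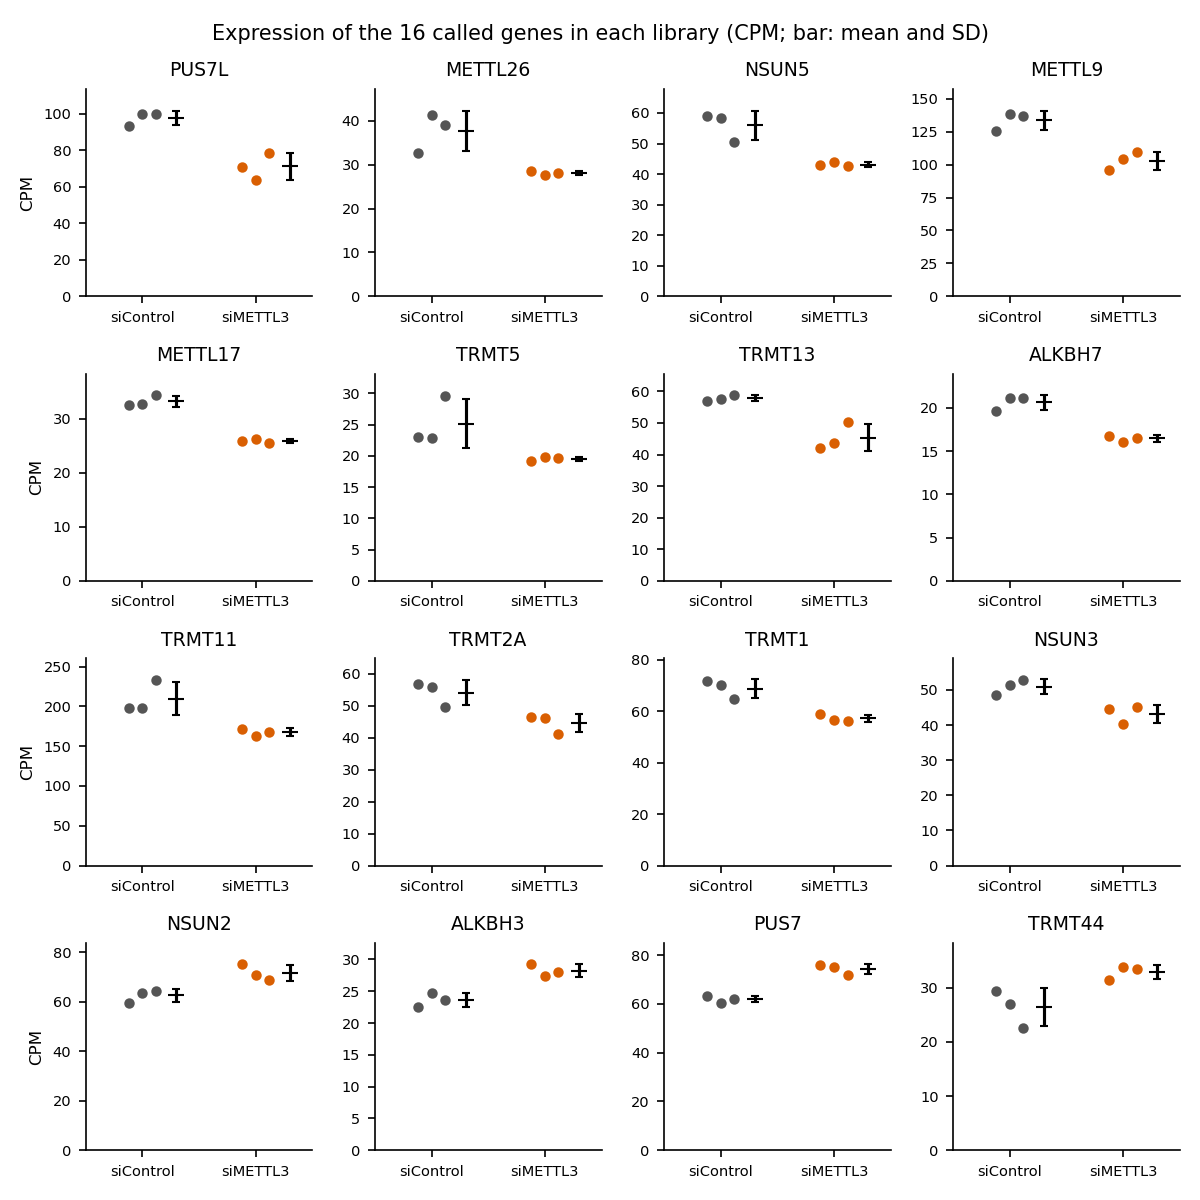
Normalised expression (CPM, y axis from 0) of the 16 called genes in each of the 3 siControl (grey) and 3 siMETTL3 (orange) libraries, with the mean and SD beside them. In every panel the groups do not overlap; PUS7L falls from 97.7 to 71.1 CPM and PUS7 rises from 61.9 to 74.4 CPM on average.

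Among the 8 members that act on mitochondrial RNA or ribosomes, METTL17 and NSUN3 fell and 6 were not past the threshold. METTL17 (chromosome 14, 20989770 to 20997035), a factor in assembly of the mitochondrial small ribosomal subunit, measured 32.6, 32.7 and 34.5 CPM in siControl and 25.9, 26.3 and 25.5 CPM in siMETTL3. Both groups were tight, and the log2 fold change was -0.36 (SE 0.077, edgeR FDR 0.00225). NSUN3 (chromosome 3, 94062980 to 94131832), which modifies the wobble cytosine of mitochondrial methionine tRNA, went from 48.7, 51.3 and 52.8 CPM to 44.5, 40.3 and 45.0 CPM. The fitted log2 change came to -0.23 (SE 0.072, edgeR FDR 0.0192), and the call was lost without siControl replicate 2 (FDR 0.0675) or siMETTL3 replicate 2 (FDR 0.0958). The other 6 had log2 fold changes from -0.21 (TRMT10C) to 0.22 (NSUN4). METTL15, which methylates mitochondrial ribosomal RNA, was at 96.2 ± 10.1 and 96.0 ± 5.99 CPM.

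Of 4 genes for ribosomal, spliceosomal or other RNA, NSUN5 fell. NSUN5 (chromosome 7, 73302516 to 73308826), which places m5C in the large ribosomal RNA, measured 59.1, 58.4 and 50.5 CPM in siControl and 42.9, 43.9 and 42.6 CPM in siMETTL3. The siMETTL3 values lay close together and below all siControl values (log2 fold change -0.38, SE 0.074, edgeR FDR 0.00120). Near-identical pseudogene copies of NSUN5 exist in the genome, so its level is uncertain. METTL5, which writes m6A in the small ribosomal RNA, was at 63.0 ± 4.14 and 58.9 ± 3.46 CPM, and METTL4, which acts on a spliceosomal RNA, was at 28.0 ± 0.720 and 27.2 ± 0.971 CPM. Neither was past the threshold (edgeR FDR 0.322 and 0.693). NSUN7 was near the limit of detection, at 1.08 ± 0.158 and 1.35 ± 0.187 CPM.

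Among the 7 ALKBH genes, ALKBH3 rose and ALKBH7 fell. ALKBH3 (chromosome 11, 43880811 to 43920274), which removes methyl groups from alkylated nucleic acids, went from 22.5, 24.7 and 23.6 CPM to 29.3, 27.3 and 28.1 CPM (log2 fold change 0.26, SE 0.083, edgeR FDR 0.0244). That call was lost without siControl replicate 1 (FDR 0.0629) or without siMETTL3 replicate 1, 2 or 3 (FDR 0.103, 0.0506 and 0.0632). ALKBH7 (chromosome 19, 6372794 to 6375250), a mitochondrial member of the family, went from 19.6, 21.2 and 21.1 CPM to 16.8, 16.1 and 16.6 CPM (log2 fold change -0.32, SE 0.091, edgeR FDR 0.0128). It missed the threshold without siControl replicate 2 (FDR 0.0523) or siMETTL3 replicate 2 (FDR 0.0506). PSPN shares 4.19% of its span and held 1.97 CPM on average in siControl. The remaining 5 were between -0.20 (ALKBH4) and 0.090 (ALKBH1). ALKBH8, which helps write the wobble uridine mark of tRNA, was lower in all 3 siMETTL3 libraries (39.2 ± 1.52 against 34.7 ± 1.83 CPM) but not past the threshold (edgeR FDR 0.0817).

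The 13 remaining METTL genes encode enzymes of proteins or small molecules, or proteins whose substrate is not settled. Of the 10 that were tested, 2 fell and 0 rose. METTL9 (chromosome 16, 21597218 to 21657473), a protein histidine methyltransferase, went from 126, 139 and 137 CPM to 95.8, 104 and 109 CPM (log2 fold change -0.38, SE 0.065, edgeR FDR 0.000531). IGSF6 lies within 21.7% of its span and held only 9.33 ± 2.25 CPM in siControl and 8.98 ± 1.06 CPM in siMETTL3. METTL26 (chromosome 16, 634427 to 636366) went from 32.7, 41.4 and 39.0 CPM to 28.7, 27.6 and 28.1 CPM (log2 fold change -0.42, SE 0.092, edgeR FDR 0.00262). The siMETTL3 values nearly coincided, while siControl replicate 1 lay well below the other siControl libraries.

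The other 8 METTL genes had log2 fold changes from -0.27 (METTL18) to 0.21 (METTL25). METTL18, a histidine methyltransferase of a ribosomal protein, lies wholly inside C1orf112, and METTL21A, which methylates chaperones of the HSP70 family, shares 56.0% of its span with CREB1. METTL27 and METTL24 were barely expressed, at means of 0.552 and 1.94 CPM in siControl. METTL7B, METTL11B and METTL21C were not tested because their counts were too low: they had 0 to 3, 0 to 6 and 2 to 10 counts per library.

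Levels per length depended on which length was used, because the counts cover the whole gene span, introns included. Per kilobase of the canonical transcript, the siControl mean was 114 CPM for TRMT11, 68.1 for TRMT112, 58.9 for METTL21A and 47.3 for METTL26. Per kilobase of span it was 0.965, 34.0, 1.73 and 19.4 CPM in the same genes. The genes therefore cannot be ranked by level from these counts.

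Several members work as subunits of shared enzymes, and the partners did not always move alike. METTL1, which makes m7G in tRNA, was at 23.2, 17.8 and 17.6 CPM in siControl and at 19.9, 19.9 and 19.3 CPM in siMETTL3 (edgeR FDR 0.960). It shares 14.1% of its span with CYP27B1 and 17.2% with EEF1AKMT3, so its count can hold their reads. These held 8.93 and 11.6 CPM on average in siControl. For WDR4, the partner of METTL1, the level was 126 ± 14.02 CPM in siControl and higher, 150 ± 3.89 CPM, in siMETTL3 (log2 fold change 0.25, SE 0.073, edgeR FDR 0.0155). That call was lost without siControl replicate 2 (FDR 0.0736) or without siMETTL3 replicate 1 or 2 (FDR 0.0747 and 0.0635). TRMT6 and TRMT61A, which together write m1A in tRNA, had log2 fold changes of -0.21 and -0.17, and neither was past the threshold (edgeR FDR 0.0621 and 0.293). TRMT10C of the mitochondrial RNase P was at 28.7 ± 4.16 and 24.8 ± 0.886 CPM (edgeR FDR 0.129). Its partner HSD17B10 fell from 74.9 ± 2.25 CPM to 52.8 ± 2.27 CPM (log2 fold change -0.50, SE 0.063, edgeR FDR 3.92e-05), and PRORP, the nuclease subunit, was not past the threshold (-0.090, edgeR FDR 0.298). NSUN4 and its partner MTERF4, which act on the mitochondrial small ribosomal subunit, had log2 fold changes of 0.22 and 0.21 (edgeR FDR 0.0599 and 0.0978). SARS1 and DALRD3, which aid enzymes of the METTL6 and METTL2 type, fell (log2 fold changes -0.38 and -0.33, edgeR FDR 0.000157 and 0.00475).

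TRMT112 (chromosome 11, 64316460 to 64318084) is the common activating subunit of several methyltransferases for tRNA, rRNA and proteins. It measured 59.5, 51.9 and 54.6 CPM in siControl and 55.8, 59.9 and 59.4 CPM in siMETTL3, with overlapping groups (log2 fold change 0.077, edgeR FDR 0.415). Of its 7 catalytic partners, TRMT11, THUMPD2 and N6AMT1 fell, where 19.2% of all tested genes were called lower and 37.8% in either direction. THUMPD2, which modifies a spliceosomal RNA, fell from 106 ± 3.30 CPM to 91.2 ± 2.68 CPM (log2 change -0.22; edgeR FDR 0.00813, and 0.0559 without siMETTL3 replicate 1). N6AMT1, which methylates a translation release factor, fell from 15.3 ± 1.10 CPM to 11.4 ± 1.46 CPM (edgeR FDR 0.0133, with a log2 change of -0.42). That call was lost without siControl replicate 2 (FDR 0.0580) or siMETTL3 replicate 2 (FDR 0.0720). THUMPD3, METTL5, ALKBH8 and BUD23 were not past the threshold (log2 fold changes -0.16, -0.094, -0.18 and 0.077), and neither was THUMPD1, the adaptor of tRNA acetylation (0.040).

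**Figure D3:**
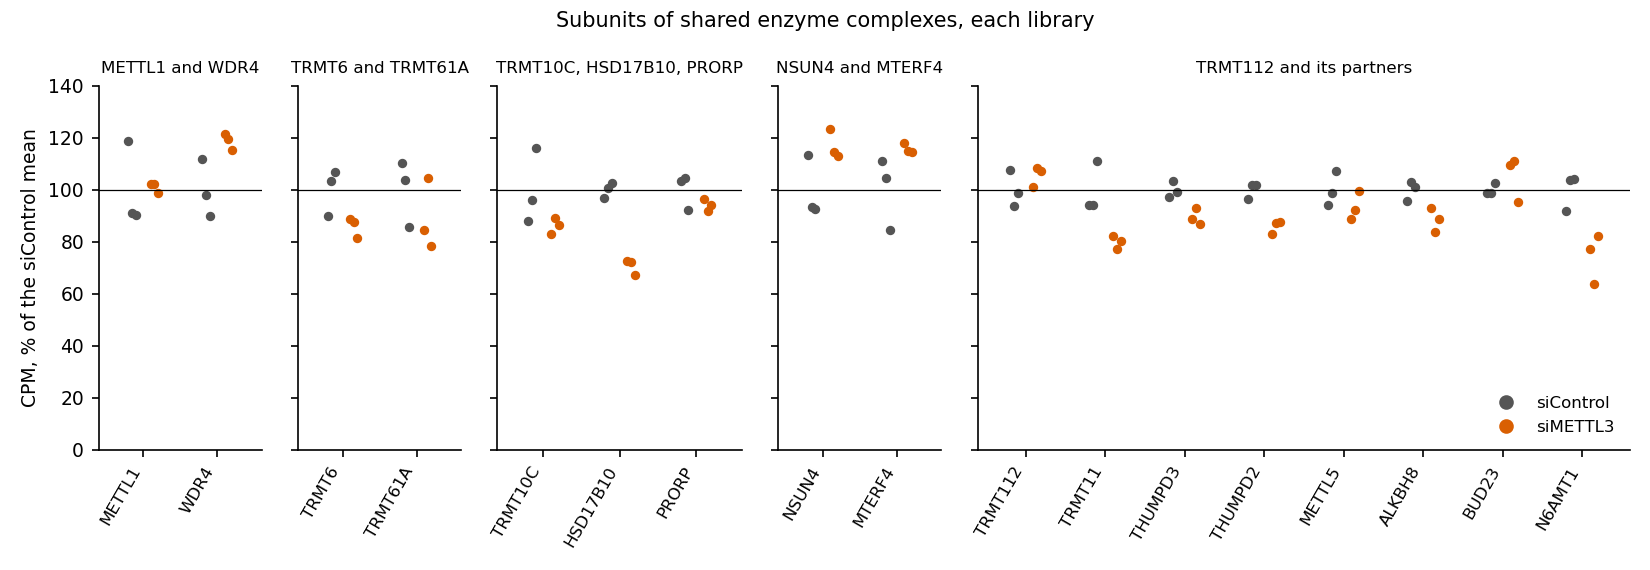
Expression of partner genes in each library as a percentage of the gene's siControl mean (y axis from 0; grey siControl, orange siMETTL3). HSD17B10, TRMT11, THUMPD2 and N6AMT1 lie below their controls in all 3 siMETTL3 libraries, while TRMT112 and METTL1 overlap with theirs.

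Other RNA modification genes, 94 in all and all tested, were taken from lists written from general knowledge. Of these, 28 were lower and 7 higher at an FDR under 0.05 (37.2% called, against 37.8% of all tested genes). Their median log2 fold change was -0.095, and -0.0021 over all tested genes. Among 43 other tRNA genes 12 fell and 4 rose (37.2% called, again near the share of all tested genes). Among those that fell were YRDC (-0.57), which makes threonylcarbamoyladenosine, URM1 (-0.47) of the wobble thiolation pathway and DTWD1 (-0.45). TYW1 and TYW1B of wybutosine synthesis (0.36 and 0.43), the deaminase subunit ADAT3 (0.65) and the isopentenyl transferase TRIT1 (0.21) rose. ADAT2, the partner of ADAT3, fell (-0.33, edgeR FDR 0.00191). TYW3, TYW5 and LCMT2 of wybutosine synthesis were not past the threshold (0.13, -0.0605 and -0.24). Of the members in that pathway, TRMT5 fell (-0.35) and TRMT12 was not past the threshold (-0.19). The TRIT1 call was lost when siMETTL3 replicate 1 (edgeR FDR 0.0785) or 2 (0.0553) was left out, and TYW1 and TYW1B are close copies whose reads may be mixed.

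Among 20 rRNA-modifying genes 6 fell, NHP2, FTSJ3, TFB2M and DKC1 foremost (log2 fold changes -0.44, -0.31, -0.30 and -0.36), and MRM1 rose (0.43). NHP2 and DKC1 belong to the box H/ACA pseudouridylation complex. NOP10 and GAR1 of the same complex were not past the threshold (log2 fold changes -0.10 and 0.11, edgeR FDR 0.498 and 0.548). Of the 7 further pseudouridine synthases PUSL1 (-0.57), RPUSD4 (-0.34) and RPUSD1 (-0.36) fell and 0 rose. Called shares were 35.0% (rRNA list), 42.9% (these 7 synthases) and 23.1% (cap list below), against 37.8% of all tested genes. RPUSD1 was not past the threshold without siControl replicate 2 (edgeR FDR 0.0795), siMETTL3 replicate 1 (0.0788) or siMETTL3 replicate 3 (0.111). Of 13 genes for the mRNA cap, RNA ends and editing, LARP7 and MEPCE fell (-0.43 and -0.39), and ADARB1, an adenosine deaminase that edits RNA, went up from 51.7 ± 7.23 CPM to 87.6 ± 3.13 CPM (log2 change 0.76, edgeR FDR 2.54e-05). YRDC, ADAT3, TYW1, NHP2, FTSJ3, PUSL1, RPUSD1, MEPCE and DALRD3 each overlap at least 1 other gene of the tables, so their counts can hold reads of it.

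The span of a gene went along with the direction of its call. The 12 lower members had a median span of 11.2 kb, the 4 higher ones 48.4 kb and the 38 others 25.1 kb. Over all tested genes the medians were 23.9 kb for lower, 61.3 kb for higher and 33.3 kb for the rest. Because the counts cover whole spans, the fit was repeated with an offset that removes the trend of each library with span. With it, METTL26, ALKBH7, TRMT2A and TRMT5 were no longer past the threshold (log2 fold changes -0.21, -0.14, -0.15 and -0.27; edgeR FDR 0.0507, 0.244, 0.129 and 0.0648). All 4 have spans under 10 kb. So do NSUN5 and METTL17 (6.31 and 7.27 kb), which stayed past the threshold (log2 fold changes -0.26 and -0.25, edgeR FDR 0.0108 and 0.0174). METTL26, ALKBH7 and TRMT112, with spans of 1.94, 2.46 and 1.62 kb, lie at the short end of the trend, where only 1.70%, 2.71% and 1.24% of tested genes are shorter, so their offset is set mostly by longer genes. Among the 94 other RNA modification genes, 22 were lower and 7 higher with the offset, against 28 and 7 without it. Over all genes 37.2% were called with the offset, against 37.8% without it. RPUSD1 was among the lower calls that were lost (-0.21, edgeR FDR 0.155). NSUN4 and TRMT112 passed as higher (0.24 and 0.30, FDR 0.0386 and 0.0111), and METTL6, METTL8 and ALKBH8 as lower (-0.20, -0.18 and -0.23, FDR 0.0257, 0.0386 and 0.0250). PUS7L, METTL9 and TRMT11 fell by somewhat more (-0.48, -0.43 and -0.38) and PUS7 rose by somewhat less (0.20). What the trend with span comes from was not tested.

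**Figure D4:**
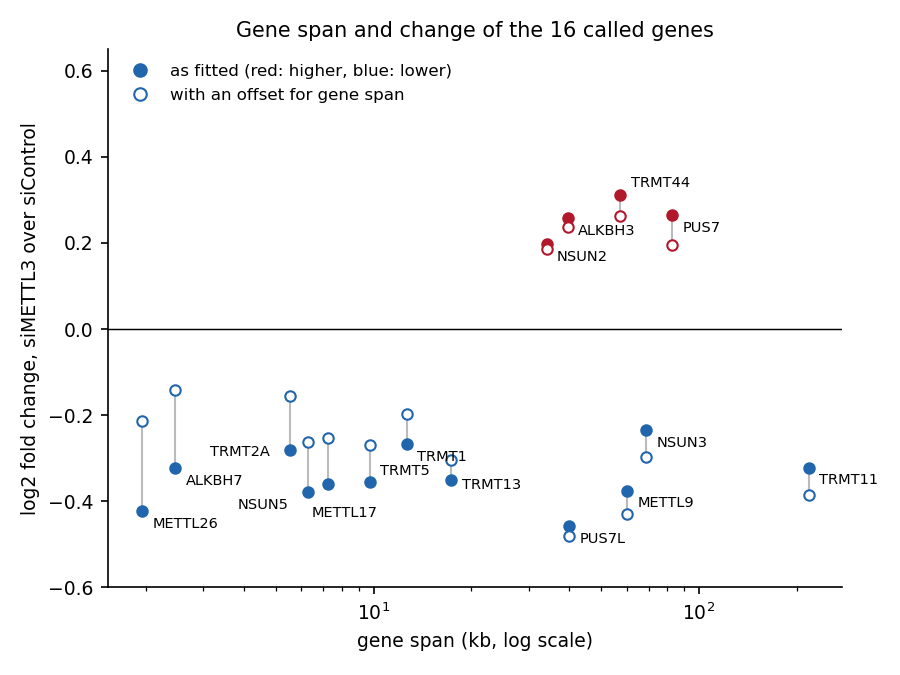
Log2 fold change (y axis) of the 16 called genes against gene span (x axis, log scale, kb), as fitted (filled) and with an offset for span (open). The short genes METTL26, ALKBH7 and TRMT2A move toward 0 with the offset, and PUS7L, METTL9 and TRMT11 move away from it.

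The letters GGACT, the most typical form of the motif in which METTL3 methylates, were counted in the canonical transcript of each member (GENCODE release 44, transcript strand only). They occurred in 50 of 56 members and in 87.8% of all 20020 canonical transcripts. The median was 3.5 per transcript in the 4 higher members, 1.5 in the 12 lower ones and 2 in the 38 others; over all tested genes it was 4, 3 and 3. PUS7, which rose, held 7, of which 4 were coding, and TRMT44 held 4, all coding. PUS7L, which fell, held 10 in a transcript of 13567 bases, and TRMT112, METTL5 and TRMT10C held 0. PUS3 held 7 and ALKBH8 held 5, all coding, and neither gene was past the threshold. The coding windows of PUS7 and TRMT44 are shown because these are the higher members with the most coding matches; capitals mark the motif, coordinates are GRCh38, PUS7 on the minus and TRMT44 on the plus strand. Whether any of these adenosines is methylated was not measured here.
PUS7, chr7:105508239-105508259: aggaagatGGACTttcagagg
PUS7, chr7:105508179-105508199: tgaagcatGGACTcactgagg
PUS7, chr7:105470723-105470743: tgcttcgaGGACTttcaaaat
PUS7, chr7:105468364-105468384: aagactatGGACTaaaacctg
TRMT44, chr4:8440993-8441013: cggccccgGGACTagcgcagg
TRMT44, chr4:8441180-8441200: cccctgagGGACTccgggcac
TRMT44, chr4:8467970-8467990: tgaaaagaGGACTcagtacat
TRMT44, chr4:8475918-8475938: ctgtccacGGACTgctgcccg

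Promoters were searched for CACGTG, the E-box letters bound by MYC family proteins and the same on both strands, because MYCN is amplified in these cells and rose here (log2 fold change 0.62). RefSeq promoter windows of GRCh38.p14, 250 bases before to 50 after the start, were matched for 47 of the 57 members. The motif stood in 4 of them (8.51%), against 7.43% of all 27305 promoters. PUS7 was called higher; METTL21A, TRMT6 and TRMT61A were not past the threshold. The 4 matches are given with 8 bases on each side, all on the minus strand except TRMT61A, to show where the motif sits, near the start in the called member and in those not past the threshold.
PUS7, chr7:105522230-105522251: ctgcgccgCACGTGtgcgagcc
METTL21A, chr2:207625933-207625954: tcgggcgcCACGTGttcacttc
TRMT6, chr20:5950516-5950537: gcgtgcaaCACGTGggggcggt
TRMT61A, chr14:103529220-103529241: cgcggaggCACGTGtggagccc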

How the data were processed

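RNA-seq counts of 6 libraries were used. Per the file headers, the authors deposited raw read counts per gene, made with featureCounts v1.5.3 on a GENCODE release 33 protein-coding annotation (GRCh38). The counted feature was the whole gene, introns included, reads over several genes were counted for each, and no strand option was set, so the 26 members that overlap another gene can share its reads. The submitters' processing notes name Trimmomatic 0.36 and HISAT2 2.1.0.

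Genes were filtered with filterByExpr, scaled by TMM and tested with edgeR 4.0.16 (R 4.3.3, robust quasi-likelihood F-test, no covariate, FDR over all 15311 genes, threshold 0.05). SE is the absolute log2 fold change over the square root of F; CPM use TMM-scaled library sizes. The fit was checked on simulated counts, but with changes larger than those of the called members. That check does not cover changes of their size. Alternatives were other scalings and filters, DESeq2 1.42.0, limma-voom 3.58.1, non-robust dispersions, the replicate block, each library left out, genes without overlaps and a span offset (lowess, span 0.3). The members, roles and lists were chosen with earlier results of these data known. Some genes of a complex or pathway are given beside a named gene of it. Named genes are all called members, all partners and, per other list, up to 4 called genes a direction with the smallest FDR. A gene that this rule names is not reported here.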

Additional observations from a re-analysis of the deposited data

How the results depend on the processing

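All 16 called members kept their sign under every one of the 17 alternatives in which they were tested, and 8 (PUS7L, METTL9, NSUN5, METTL17, TRMT11, TRMT13, TRMT1 and PUS7) stayed past the threshold in all of these. Of the 38 members that were not called, 12 were called in some alternative. Leaving out each library in turn, the number of higher members went from 1 to 5, of lower members from 9 to 15, of other RNA modification genes from 5 to 10 higher and from 20 to 33 lower, and the members' median from -0.072 to -0.020. There were 2 higher members when siControl replicate 2, or either siMETTL3 replicate 1 or 3, was left out, and 1 without siMETTL3 replicate 2; the count over all genes also fell in these fits, to between 4210 and 4524 from 5786. On genes without overlaps, 6 members and 16 other RNA modification genes were lower, of 29 and 57 tested there, so fewer genes could be called. The 12 members that changed sign were METTL15 (in 7 alternatives), ALKBH6 (in 6), METTL1 (in 3), METTL21A, METTL27, PUS1, METTL2A and METTL23 (in 2 each), and METTL24, PUS3, ALKBH2 and TRMT2B (in 1 each). Log2 fold changes of opposite sign included those of METTL1 (-0.058 without siControl replicate 2, -0.058 without siControl replicate 3, -0.0014 without siMETTL3 replicate 2; up to 0.16 without siControl replicate 1), METTL2A (0.034 without siControl replicate 1, 0.0028 without siMETTL3 replicate 2; down to -0.077 without siMETTL3 replicate 1), METTL24 (-0.017 without siControl replicate 3; up to 0.34 without siControl replicate 1) and, among the partners, THUMPD1 (-0.028 without siControl replicate 1, -0.019 without siMETTL3 replicate 3; up to 0.11 without siControl replicate 3). None of these values was past the threshold, and the cause was not tested.

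Whether equal replicate numbers were paired is not given by the labels, and the main fit did not use them. Deviations from the group means correlated weakly, at 0.040, 0.049 and 0.067 for equal numbers. For unequal numbers the correlations went from -0.064 to 0.026, so every library correlated best with its own number. With the replicate number as a block, 5 members were higher and 12 lower, 7 and 31 other RNA modification genes were higher and lower, and the median was -0.045; NSUN4 was added to the calls (FDR 0.0237). Calls over all genes also went up, from 5786 to 6166 (40.3%).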
